A study of Homo sapiens with 27 samples.

Results

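The genes of 70 histone-modifying enzymes were followed in RNA-Seq counts of cultured U2OS cells, out of 55882 gene symbols in the count tables. They were chosen by symbol alone, as the KDM lysine demethylases, the HDAC and SIRT deacetylases and the KAT, EP300 and CREBBP acetyltransferases. With them came the SETD genes, the EZH, EHMT, SUV39H and DOT1L lysine methyltransferases and the PRMT arginine methyltransferases. The SETD genes code for SET domain proteins and are counted below with the methyltransferases, whatever their substrates. Antisense genes and pseudogenes with such symbols were left out, as were KDM8, SETDB1 and SETDB2, whose symbols lack the pattern of number and letter. Of the 70 genes, 67 passed the filter on low counts in every comparison. KDM4E and PRMT8 had almost no reads, KDM5D did not pass either, and these 3 entered no test.

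U2OS is an established human osteosarcoma cell line. By the study's text, stable lines carried the blank pLKO.1 vector (control) or a pLKO.1 short hairpin RNA against MMP2, called sh1 (hairpin 23) and sh2 (hairpin 26). The controls then shared the vector and its selection but no hairpin. The sample titles, however, call the controls U2OS WT and name no vector, so that the labels do not settle whether the controls carried it. Days are counted from confluence (day 0), so that day -2 stands for subconfluent cultures seeded at 30% and day +2 for overconfluent ones. Poly(A) RNA of 3 independent biological replicates was sequenced in each of the 9 groups of line and day, 27 libraries in all. Each hairpin was represented by 1 transduced line, so that a difference between a hairpin line and the control cannot be told apart from a difference between lines.

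Histone-modifying enzymes add or remove small chemical groups on the tails of the histones around which DNA is wound. Acetyltransferases and deacetylases set the acetylation found at active promoters, while methyltransferases and demethylases act on single residues, so that methylation of lysine 4 of histone H3 (H3K4) marks active promoters and that of H3K9 and H3K27 marks silent chromatin. MMP-2, best known as a secreted matrix protease, can also cut the tail of histone H3 in the nucleus. By the product that the study names, the cut takes away the part with H3K4 and H3K9 and leaves H3K27. The residues of only some of these enzymes are thus lost. The counts below measure the mRNAs of the enzymes, not their proteins, their activity or the marks.

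The libraries held 33580129 to 59374327 counts on genes (median 40075178). MMP2 itself was checked first, and its level in the 3 libraries of day -2 was 222, 226.3 and 248 CPM (counts scaled to library size, with trimmed-mean factors over all libraries) in control, 34.0, 39.6 and 46.8 in sh1 and 136, 139.9 and 155 in sh2. MMP2 was below control in every library of both hairpin lines at all 3 days, with log2 fold changes of -2.53, -2.47 and -2.34 in sh1 and of -0.70, -1.06 and -0.82 in sh2, so that the depletion was smaller in sh2. Of the markers of an osteosarcoma line, RUNX2 stood at 30.0 to 63.7 CPM and COL1A1 at 1005 to 1486 CPM, while the bone markers IBSP, SP7 and BGLAP and the collagen gene COL1A2 were at or near 0. Of the markers of other cell types, the keratin KRT18 (107.5 to 188.5 CPM) and EPCAM (3.12 to 6.73 CPM) were present in all libraries. Between replicates, 1 library stood apart: sh1 day -2 replicate 1 differed from replicates 2 and 3 of its group by a chi-square over genes of 17.5 and 22.2 times its degrees of freedom, while no other pair of replicates exceeded 12. Without it, 39 members in place of 45 were called over the expansion of sh1, 15 in place of 14 in sh1 against control at day -2, 8 in place of 10 in the interaction of sh1 and day and 5 in place of 11 in sh1 against sh2 at day -2.

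The members differed widely in abundance. Per kilobase of exon, the control cells of day -2 held most mRNA of PRMT1, the main enzyme of asymmetric arginine methylation, at 65.2 CPM per kilobase. HDAC1, a class I deacetylase, followed at 26.95 CPM per kilobase, and the H3K9 methyltransferase EHMT2, the class IIa deacetylase HDAC7, the acetyltransferase KAT2A, the arginine methyltransferase PRMT5 and the acetyltransferase CREBBP stood between 16.7 and 17.98 CPM per kilobase. At the lower end of the members that entered the tests, KDM7A, SIRT5, HDAC4 and HDAC10 were at 0.515, 0.510, 0.367 and 0.141 CPM per kilobase. These levels use all annotated exons of a gene, including those of transcripts that U2OS cells may not make, so that neighbours in this order are only roughly placed.

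To examine how the enzymes changed as cells grew past confluence, control cells of day +2 were compared with those of day -2. Of the 67 members, 36 were called (53.7%; 16 higher and 20 lower) by the quasi-likelihood test of edgeR at a Benjamini-Hochberg adjusted p under 0.05, while 56.8% of all 19099 genes tested were called (28.1% higher and 28.6% lower). The members were thus called about as often as genes in general, but the classes moved in different directions. Of 16 lysine demethylases tested, 11 rose and 3 fell (median log2 fold change 0.26), whereas of 24 methyltransferases 1 rose and 13 fell (median -0.17). Among the methyltransferases, 4 of the 7 arginine methyltransferases fell and none rose (median -0.34), with the same counts in DESeq2 and 0 higher at an unadjusted p under 0.05 in edgeR. Of the 9 acetyltransferases, 1 rose and 3 fell. Of the 11 HDAC genes, 2 rose and 1 fell, and of the 7 sirtuins 1 rose.

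Most changes were small. The median absolute log2 fold change was 0.25 over the members and 0.41 over all genes, and 3 of the called members, all demethylases, changed more than 2-fold. The median change itself was -0.03 over the members and 0.03 over all genes. In these bulk libraries, fewer cells expressing a gene and less of its RNA per cell cannot be told apart. Genes of proliferation were lower at day +2 as well, with 23 of 28 called lower and 1 higher (median -0.38), and their part in the changes of the enzymes was not tested.

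**Figure D1:**
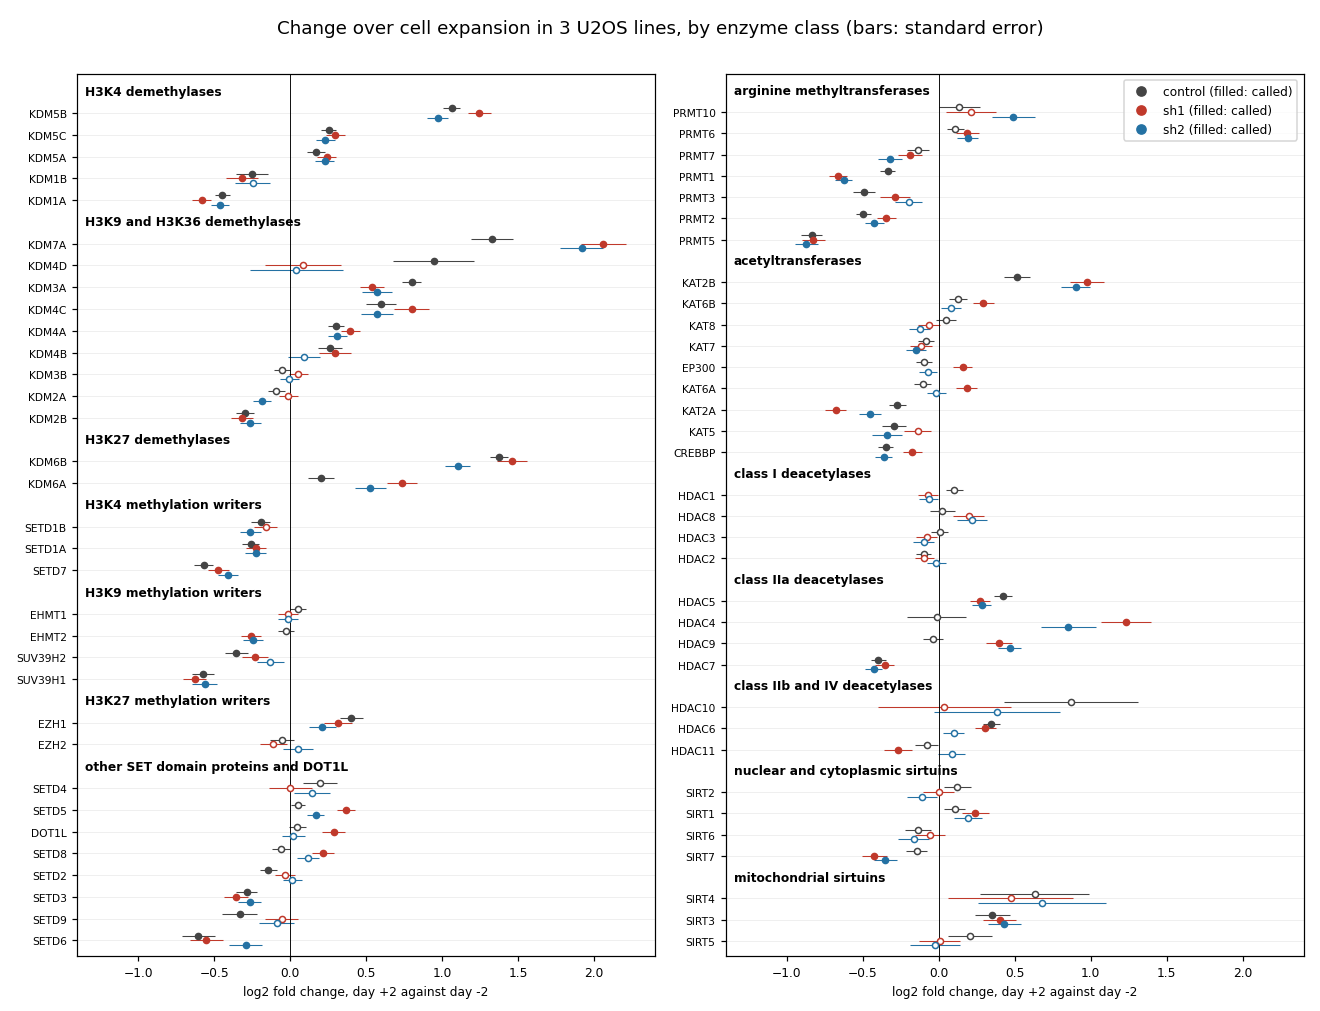
Change of each of the 67 tested genes from day -2 to day +2 (x axis, log2 fold change; bars are standard errors) in control, sh1 and sh2 cells, by enzyme class, with filled points for called changes. Most demethylases lie right of 0 and most methyltransferases left of it in all 3 lines, and KDM6B, KDM7A and KDM5B lie farthest right in the control.

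The H3K27 demethylase KDM6B (build hg19, chr17:7737535-7758114) had the largest change of all members. Its level was 30.9, 32.3 and 30.1 CPM in the control libraries of day -2, 40.9, 38.3 and 40.3 CPM at day 0 and 79.9, 79.5 and 82.1 CPM at day +2. The libraries of the 3 days did not overlap, and the level of day +2 was 2.60-fold that of day -2 (log2 fold change 1.38 ± 0.06, adjusted p = 7.63e-17; ± gives the standard error of fold changes throughout). The second H3K27 demethylase, KDM6A (chrX:44732434-44972024), stood at 21.2, 19.5 and 20.5 CPM at day -2 and at 24.7, 24.2 and 21.4 CPM at day +2. Its libraries did not overlap, but the change was small (log2 fold change 0.20 ± 0.08, adjusted p = 0.0399) and the call was lost on leaving out any one of 5 of the 6 libraries, all but control day +2 replicate 3 (log2 fold change 0.16 to 0.26 over the 6 fits).

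KDM7A (chr7:139784546-139876783), which removes methyl groups from H3K9 and H3K27, was among the scarce members, at 5.61, 4.67 and 4.21 CPM at day -2, 5.87, 7.86 and 5.61 CPM at day 0 and 12.4, 10.7 and 13.5 CPM at day +2. The 3 overconfluent libraries lay above the 6 others, whose 2 days overlapped, and the change from day -2 was 2.51-fold (log2 fold change 1.33 ± 0.14, adjusted p = 4.46e-09). The H3K9 demethylase KDM3A (chr2:86667770-86719839) rose from 34.3, 32.4 and 34.0 CPM to 54.2, 58.9 and 61.5 CPM (log2 fold change 0.80 ± 0.06, adjusted p = 3.85e-11), and the H3K9 and H3K36 demethylase KDM4C (chr9:6720863-7175648) from 11.3, 11.5 and 13.0 CPM to 18.03, 19.6 and 16.2 CPM (log2 fold change 0.60 ± 0.10, adjusted p = 1.33e-05). In neither did the libraries of the 2 days overlap. KDM4D (chr11:94706873-94732683), a related gene close to the detection limit, was at 1.32, 1.37 and 2.08 CPM at day -2 and at 3.89, 2.60 and 2.59 CPM at day +2 (log2 fold change 0.95 ± 0.27, adjusted p = 0.00350). These libraries did not overlap either, but the same change in sh1 cells was 0.08 ± 0.25 and in sh2 cells 0.04 ± 0.31, and neither was called.

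The H3K4 demethylases were divided between the KDM5 and the KDM1 genes. KDM5B (chr1:202693623-202777615), which removes the trimethyl mark of active promoters, was at 52.7, 49.7 and 54.7 CPM at day -2, 67.9, 68.8 and 62.1 CPM at day 0 and 109, 108 and 109 CPM at day +2. The days did not overlap and the change over the whole expansion was 2.09-fold (log2 fold change 1.06 ± 0.05, adjusted p = 2.97e-15). KDM5C (chrX:53205465-53254604) went from 137, 148 and 133 to 164, 163 and 170.0 CPM (log2 fold change 0.26 ± 0.05, adjusted p = 9.83e-05). KDM5A (chr12:389223-498486) went from 94.8, 87.1 and 92.4 to 113, 98.5 and 95.8 CPM (log2 fold change 0.17 ± 0.06, adjusted p = 0.0164). The days did not overlap in either gene, and the call of KDM5A was lost without control day -2 replicate 2 or day +2 replicate 1 (0.09 to 0.21 over the 6 fits). KDM1A and KDM1B, which remove the mono- and dimethyl marks, were the 2 members of this group that fell.

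All 3 members that write H3K4 methylation fell. SETD7 (chr4:140417095-140527853), a monomethyltransferase that also acts on proteins other than histones, was at 106, 103 and 98.1 CPM at day -2, 90.2, 88.7 and 88.8 CPM at day 0 and 75.9, 67.6 and 62.7 CPM at day +2. Each day lay below the one before it (log2 fold change -0.57 ± 0.06, adjusted p = 7.27e-09 for the whole interval). SETD1A (chr16:30968615-30995985), a catalytic subunit of a COMPASS complex that trimethylates H3K4, went from 87.3, 90.6 and 94.7 to 77.7, 74.5 and 74.4 CPM (log2 fold change -0.26 ± 0.05, adjusted p = 1.49e-04), and its paralog SETD1B (chr12:122241915-122270562) from 55.5, 60.1 and 65.2 to 53.0, 52.5 and 51.8 CPM (log2 fold change -0.19 ± 0.06, adjusted p = 0.00987). Neither overlapped between these days, and the call of SETD1B was lost without control day -2 replicate 3 (-0.25 to -0.14 over the 6 fits). Of 8 other subunits of COMPASS and related complexes, 6 were called lower (DPY30, HCFC1, MEN1, RBBP5, WDR5 and WDR82; median log2 fold change of the 8 -0.33, that of all genes 0.03, with 28.6% of all genes called lower). HCFC1 had the largest fall (-0.65), and ASH2L and CXXC1 were not called.

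Of the H3K9 methyltransferases, SUV39H1 (chrX:48553945-48567407), which trimethylates H3K9 in heterochromatin, fell from 41.5, 45.0 and 41.0 CPM to 26.5, 27.4 and 31.3 CPM (log2 fold change -0.57 ± 0.07, adjusted p = 1.89e-07). The 2 days did not overlap. Its paralog SUV39H2 was the other H3K9 methyltransferase called among the members, also lower, while EHMT1 and EHMT2 were not called. The H3K9 methyltransferases SETDB1 and SETDB2, which the symbols did not select, were called higher (log2 fold change 0.29 ± 0.08, adjusted p = 0.00200 and log2 fold change 0.72 ± 0.14, adjusted p = 1.27e-04). The catalytic subunits of Polycomb repressive complex 2, which methylates H3K27, were not called alike. EZH1 (chr17:40852293-40897067) rose from 22.1, 20.4 and 21.0 CPM to 27.3, 27.8 and 28.6 CPM (log2 fold change 0.40 ± 0.08, adjusted p = 6.38e-05) and was the only methyltransferase of the 24 that was called higher. EZH2 (chr7:148504349-148581413) was at 30.1, 27.02 and 27.7 CPM at day -2 and 28.6, 24.7 and 28.3 CPM at day +2, with overlapping libraries and a change of -0.05 ± 0.08 (adjusted p = 0.597). Of the 9 other subunits and partners of this complex, 2 rose (JARID2 and PHF1) and 3 fell (EED, PHF19 and SUZ12).

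The arginine methyltransferase PRMT5 (chr14:23389734-23398617), the main enzyme of symmetric dimethylation, had the largest fall of all members. Its level was 61.3, 54.7 and 52.4 CPM at day -2, 44.9, 45.2 and 46.6 CPM at day 0 and 30.5, 30.8 and 32.8 CPM at day +2. No library of a later day reached that of an earlier one, and the level of day +2 was 56.0% of that of day -2 (log2 fold change -0.84 ± 0.07, adjusted p = 4.85e-11). PRMT2 (chr21:48055507-48085036) fell from 119, 126 and 119.5 to 85.2, 85.4 and 85.8 CPM (log2 fold change -0.50 ± 0.05, adjusted p = 2.28e-09). PRMT3 (chr11:20409104-20530884), which methylates a ribosomal protein, fell from 32.4, 30.7 and 30.6 to 21.6, 22.3 and 22.5 CPM (log2 fold change -0.49 ± 0.07, adjusted p = 2.25e-06). Neither overlapped between the days, nor did PRMT1 (chr19:50179043-50192286), the most abundant member, at 313, 323 and 303 CPM at day -2 and 233, 247 and 261 CPM at day +2 (log2 fold change -0.34 ± 0.05, adjusted p = 1.41e-06). SETD6 (chr16:58549383-58557746), a monomethyltransferase whose known substrates include the RELA subunit of NF-kappaB, fell from 15.2, 17.8 and 16.2 CPM to 11.9, 10.9 and 9.46 CPM (log2 fold change -0.60 ± 0.11, adjusted p = 2.49e-05), again without overlap.

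**Figure D2:**
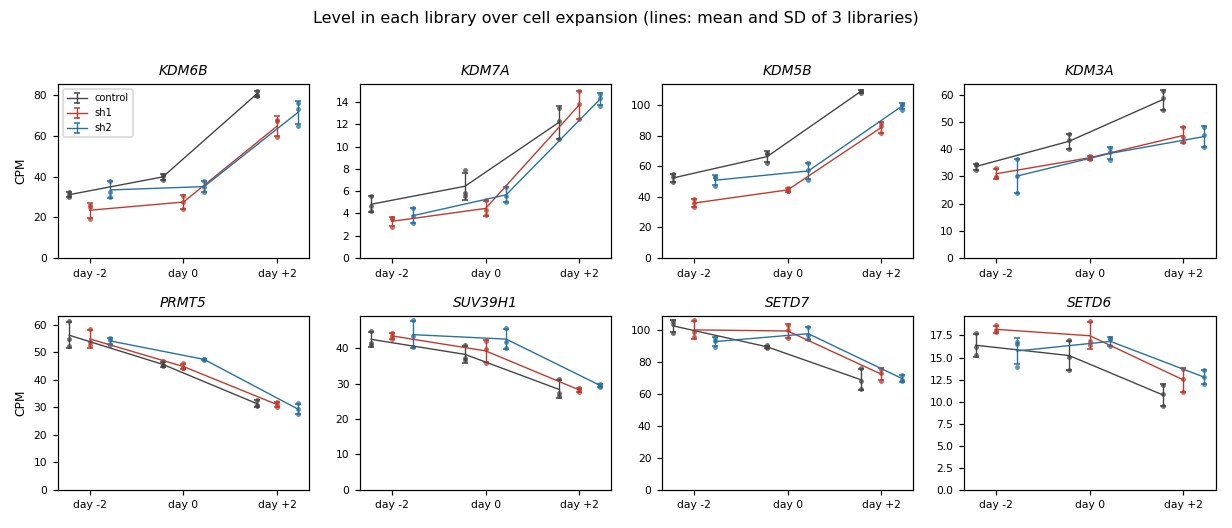
Level in each library (points, CPM) with the mean and SD of 3 libraries (lines and bars) at day -2, day 0 and day +2 in the control, sh1 and sh2 lines, for 4 demethylases (top row) and 4 methyltransferases (bottom row). The demethylases end above their starting level and the methyltransferases below it in all 3 lines, and KDM5B lies lower in sh1 than in control at each day.

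Acetyltransferases changed less uniformly. KAT2A and KAT2B, the alternative catalytic subunits of the SAGA and ATAC complexes that acetylate H3K9, moved in opposite directions. KAT2B (chr3:20081938-20195896) rose from 16.5, 19.0 and 18.8 CPM at day -2 to 27.7, 25.9 and 23.5 CPM at day +2 (log2 fold change 0.51 ± 0.09, adjusted p = 1.38e-05), while KAT2A (chr17:40265129-40273385) fell from 65.4, 65.3 and 63.7 to 51.5, 53.5 and 55.2 CPM (log2 fold change -0.27 ± 0.06, adjusted p = 1.82e-04). The days did not overlap in either gene. The related enzymes CREBBP and EP300, which acetylate H3K18 and H3K27, were not called alike. CREBBP (chr16:3775055-3930714) fell from 253, 252 and 273 to 216, 197 and 195 CPM (log2 fold change -0.35 ± 0.05, adjusted p = 1.18e-06), and EP300 (chr22:41488596-41576081) was at 161, 160.0 and 169 CPM at day -2 and 166, 146 and 145 CPM at day +2 (-0.10 ± 0.05, adjusted p = 0.125, but called, at -0.17, without control day +2 replicate 1). Only EP300 had overlapping libraries, and whether the 2 changes differ was not tested. Of 20 other subunits of acetyltransferase complexes, 4 rose and 7 fell (median -0.06).

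The class I deacetylases HDAC1, HDAC2, HDAC3 and HDAC8 were not called over the expansion in control, sh1 or sh2 cells, by edgeR or by DESeq2. At an unadjusted p under 0.05 edgeR gave 1 of the 4 in control, 0 in sh1 and 1 in sh2. HDAC8 (chrX:71549366-71792951) was at 26.3, 21.3 and 24.6 CPM at day -2 and 24.9, 23.7 and 24.6 CPM at day +2 in control, a change of 0.02 ± 0.08. Its days overlapped. Leaving out 1 library made HDAC8 a call in sh1 (without day -2 replicate 1, range 0.14 to 0.26 over the 6 fits) and in sh2 (without day -2 replicate 3 or day +2 replicate 2, 0.15 to 0.29). Among the other deacetylases, HDAC6 (chrX:48659784-48683392), a mostly cytoplasmic deacetylase of tubulin, rose from 64.1, 66.0 and 62.5 CPM to 78.5, 81.2 and 84.0 CPM (log2 fold change 0.35 ± 0.05, adjusted p = 4.84e-06). Its days did not overlap. The class IIa genes HDAC5 and HDAC7 rose and fell, respectively, and SIRT3, a mitochondrial deacetylase, was the only sirtuin called. The 13 called members not described with their libraries had log2 fold changes between -0.45 (KDM1A) and 0.42 (HDAC5). Of 17 subunits of the corepressor complexes in which class I deacetylases work, 3 rose and 6 fell (median -0.02). Of 24 other writers and erasers of histone marks that the symbols did not select, 6 rose and 9 fell (median -0.10).

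The promoters of the members were read for letters known from cell cycle genes. Shown as examples, picked to give windows without and with these letters, are 2 demethylases that rose (KDM7A and KDM5B) and 2 methyltransferases that fell (SETD6 and PRMT3). Each is 250 bases ending just before the start site, 5′ to 3′ on the strand of the gene, from the RefSeq promoter table of build GRCh38.p14. Capitals mark E2F letters, the binding sequence of a family of cell cycle factors, searched as TTCCCGC and TTGGCGC on both strands. For the shares below, a gene was counted once if any of its listed promoters held a match. The members had 1 to 5 listed promoters each, so that genes with more of them had more windows in which to match.
KDM7A, chr7:140176984-140177233, minus strand: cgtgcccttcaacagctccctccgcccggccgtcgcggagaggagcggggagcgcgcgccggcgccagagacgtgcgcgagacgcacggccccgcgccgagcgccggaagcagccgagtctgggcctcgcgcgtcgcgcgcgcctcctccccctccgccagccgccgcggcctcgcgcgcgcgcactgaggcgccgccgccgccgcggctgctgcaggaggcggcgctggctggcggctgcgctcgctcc
KDM5B, chr1:202808422-202808671, minus strand: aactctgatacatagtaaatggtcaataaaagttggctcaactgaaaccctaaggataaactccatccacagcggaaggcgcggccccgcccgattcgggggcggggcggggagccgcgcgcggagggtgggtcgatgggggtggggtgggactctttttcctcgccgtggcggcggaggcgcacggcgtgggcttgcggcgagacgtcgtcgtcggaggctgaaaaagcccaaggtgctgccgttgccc
SETD6, chr16:58515267-58515516, plus strand: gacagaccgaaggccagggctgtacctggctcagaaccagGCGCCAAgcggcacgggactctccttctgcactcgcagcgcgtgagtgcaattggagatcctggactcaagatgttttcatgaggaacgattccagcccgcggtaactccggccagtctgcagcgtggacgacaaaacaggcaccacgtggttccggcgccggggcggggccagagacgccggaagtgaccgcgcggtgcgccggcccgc
PRMT3, chr11:20387466-20387715, plus strand: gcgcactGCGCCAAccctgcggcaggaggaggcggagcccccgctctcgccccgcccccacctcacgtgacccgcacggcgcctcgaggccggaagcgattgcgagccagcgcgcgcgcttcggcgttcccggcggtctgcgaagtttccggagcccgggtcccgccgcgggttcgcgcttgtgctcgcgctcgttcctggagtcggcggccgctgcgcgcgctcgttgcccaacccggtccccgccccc
Neither demethylase had the letters in this window, whereas SETD6 and PRMT3 each had them once, at positions -210 and -243 relative to the start. Within 250 bases before and 50 after the start, the letters were found in 5 of 19 members called lower over the expansion of control cells (26.3%) and in 1 of 15 called higher (6.67%), against 13 of all 63 members with a listed promoter (20.6%) and 11.0% of 27305 genes. Those 5 were SETD6, PRMT3, the acetyltransferase KAT2A and the demethylases KDM1A and KDM1B. The other methyltransferases called lower with a listed promoter, PRMT5 and SUV39H1 among them, lacked the letters, so that the examples do not stand for their classes. The letters of the CHR element of late cell cycle genes (TTTGAA and TTCGAA, both strands) were in 1 of the 19 (5.26%), in 1 of the 15 (6.67%) and in 19.5% of all genes. A match describes the letters and is not evidence of a bound factor.

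The expansion was then divided at confluence. From day -2 to day 0, 27 of 67 members were called in control cells (40.3%; 12 higher and 15 lower), against 35.5% of all genes (16.4% higher and 19.1% lower). From day 0 to day +2, 36 were called (53.7%; 17 higher and 19 lower), against 41.4% of all genes (21.3% higher and 20.1% lower). Of the demethylases, 6 rose and 3 fell in the first step and 8 rose and 2 fell in the second, and of the methyltransferases 2 rose and 7 fell, then 2 rose and 12 fell. The proliferation genes did not fall together until the second step, with 8 of 28 called higher and 5 lower in the first (median -0.05) and 27 lower in the second (median -0.36). Among the members, 5 rose in both steps (KDM3A, KDM4A, KDM5B, KDM6B and KDM7A) and 7 fell in both (CREBBP, HDAC7, KDM1A, PRMT1, PRMT2, PRMT5 and SETD7). Shares of all genes called in both steps, with the same or with opposite signs, were not counted. The rise of KDM6B was larger in the second step (log2 fold change 1.04 ± 0.06) than in the first (0.36 ± 0.07), a difference for which no test was run. Of the first-step calls, that of KDM7A was lost without control day -2 replicate 2 or 3 or day 0 replicate 1 or 2 (0.24 to 0.54 over the 6 fits), that of CREBBP without day -2 replicate 3 or day 0 replicate 1 or 3 (-0.14 to -0.08) and that of PRMT2 without replicate 2 of either day (-0.20 to -0.14). The second-step call of PRMT1 was lost without day 0 replicate 3 or day +2 replicate 1 or 2 (-0.18 to -0.10).

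Some members turned at confluence. HDAC9 (chr7:18126572-19042039), a class IIa deacetylase, was at 47.2, 44.4 and 43.4 CPM at day -2, at 25.3, 25.0 and 25.1 CPM at day 0 and at 47.9, 42.6 and 40.9 CPM at day +2 in control. The confluent libraries lay below all others, and the fall (log2 fold change -0.84 ± 0.07, adjusted p = 1.10e-10) and the return (log2 fold change 0.82 ± 0.07, adjusted p = 9.74e-11) were of like size, so that the ends of the interval overlapped (-0.04 ± 0.07). HDAC11, PRMT6 and SIRT6 also fell and then rose. EZH2 went the other way, from the 28.3 ± 1.58 CPM (mean ± SD, n = 3) of day -2 to 33.8 ± 2.13 CPM at day 0 (log2 fold change 0.26 ± 0.07, adjusted p = 0.00598) and back to 27.2 ± 2.15 CPM at day +2 (log2 fold change -0.29 ± 0.08, adjusted p = 0.00291), as did KAT2A and KAT6B. The first call of EZH2 was lost without control day 0 replicate 2 (0.21 to 0.31 over the 6 fits), and that of KAT2A without replicate 3 of day -2 or day 0 (0.12 to 0.19).

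The same interval was compared in the hairpin lines, which were measured in libraries of their own. From day -2 to day +2, 45 of 67 members were called in sh1 (67.2%; 25 higher and 20 lower), against 54.9% of all genes (27.3% higher and 27.7% lower). In sh2 it was 38 (56.7%; 18 higher and 20 lower), against 54.7% of all genes (27.7% higher and 27.1% lower). Of the 16 members that rose in control, 15 also rose in sh1 and 13 in sh2, and all 16 had a positive change in both lines. Of the 20 that fell in control, 16 fell in sh1 and 15 in sh2, and 20 and 19 had a negative change. How many of all genes rose or fell alike in the lines was not counted. Across the 67 members, Pearson's r of the log2 fold changes was 0.82 between control and sh1 and 0.85 between control and sh2, close to the 0.86 found for both over 18164 genes, and the genes are not independent replicates.

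Called higher in all 3 lines were EZH1, HDAC5, KAT2B, KDM3A, KDM4A, KDM4C, KDM5A, KDM5B, KDM5C, KDM6A, KDM6B, KDM7A and SIRT3, 13 members of which 9 are demethylases. Called lower in all 3 were CREBBP, HDAC7, KAT2A, KDM1A, KDM2B, PRMT1, PRMT2, PRMT5, SETD1A, SETD3, SETD6, SETD7 and SUV39H1, 13 members of which 8 are methyltransferases. The share of all genes called alike in all 3 lines was not counted, so that these counts have no background beside them. In sh1, 10 of 16 demethylases rose and 3 fell, and 5 of 24 methyltransferases rose and 12 fell. In sh2, 9 demethylases rose and 3 fell, and 4 methyltransferases rose and 11 fell. KDM6B, for example, went from 19.3, 26.2 and 24.8 to 67.3, 67.8 and 59.4 CPM in sh1 and from 29.8, 32.5 and 38.0 to 73.2, 76.1 and 65.0 CPM in sh2, where its level of day +2 was 2.75-fold and 2.15-fold that of day -2. PRMT5 went from 58.4, 52.5 and 53.6 to 30.8, 31.9 and 30.2 CPM in sh1 and from 54.4, 52.7 and 55.1 to 29.2, 27.5 and 31.4 CPM in sh2. In neither gene and neither line did the 2 days overlap. The call of EZH1 in sh2 (log2 fold change 0.21 ± 0.09, adjusted p = 0.0455) was lost on leaving out any one of the 6 libraries (0.12 to 0.24) and that of SETD6 without sh2 day -2 replicate 1 or 3 or day +2 replicate 1 (-0.38 to -0.25). In sh1, the call of SETD1A was lost without day +2 replicate 2 (-0.25 to -0.19) and that of CREBBP without day -2 replicate 2 or 3 or day +2 replicate 1 or 3 (-0.25 to -0.14).

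To identify enzymes whose mRNA depended on the hairpin line, sh1 and sh2 were compared with control at each day. The control libraries of a day served for both hairpin lines, so that the calls in sh1 and sh2 are not independent of each other. In sh1, most called members were lower than control. At day -2, 14 of 67 were called (20.9%; 3 higher and 11 lower), against 11.6% of all genes (5.42% higher and 6.14% lower). At day 0 it was 21 (31.3%; 3 higher and 18 lower), against 16.8% of all genes (8.26% higher and 8.58% lower). At day +2 it was 10 (14.9%; 2 higher and 8 lower), against 14.8% of all genes (7.68% higher and 7.11% lower). The median log2 fold change of the members in sh1 was -0.08, -0.05 and -0.01 at the 3 days, and that of all genes was 0.00 at each.

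In sh2 fewer members were called. At day -2 it was 8 (11.9%; 3 higher and 5 lower), against 11.0% of all genes (4.71% higher and 6.33% lower), and at day 0 it was 9 (13.4%; 5 higher and 4 lower), against 12.9% (7.07% higher and 5.81% lower). At day +2 it was 3 (4.48%; 2 higher and 1 lower), against 6.32% (2.89% higher and 3.43% lower). The share of members called was thus near that of all genes at each day. These counts rested on single libraries. At day -2 they fell to 3, 5 and 4 without control replicate 1, 2 or 3, at day 0 to 2, 3, 5 and 2 without control replicate 1 or 2 or sh2 replicate 1 or 2, and at day +2 to 1 without control replicate 3 or sh2 replicate 1. DESeq2 gave 6 higher and 5 lower at day -2 and 1 higher and 1 lower at day +2. Its counts at day 0 were those of edgeR.

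**Figure D3:**
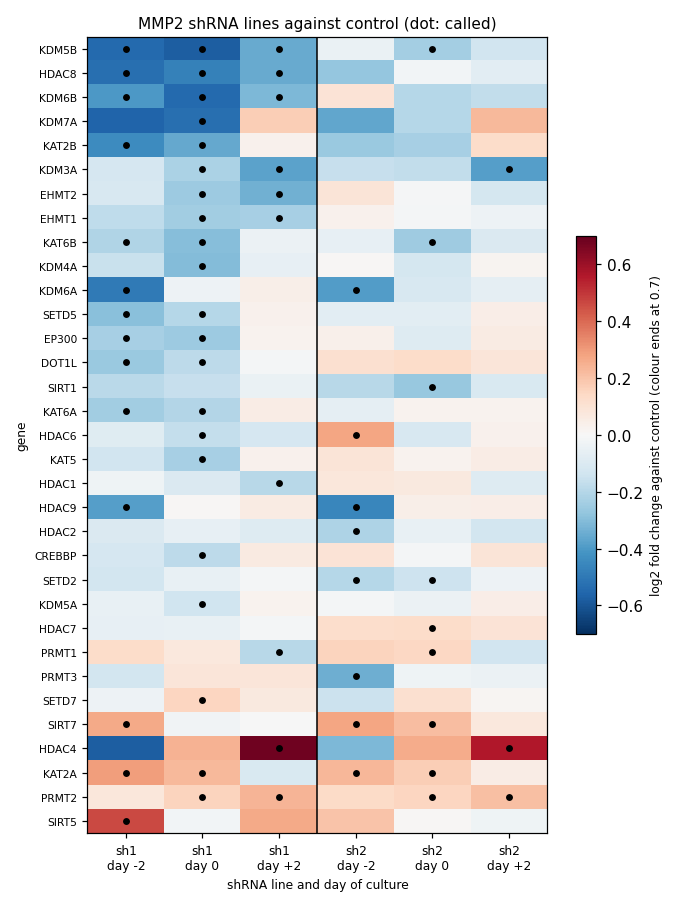
Log2 fold change against control (colour, blue lower and red higher) at the 3 days in sh1 (left 3 columns) and sh2 (right 3 columns), for the 33 members called in at least 1 of the 6 comparisons, with a dot on each call. Blue cells carry 11 of the 14 dots in the first sh1 column, 18 of the 21 in the next and 8 of the 10 in the last, and the sh2 columns hold 8, 9 and 3 dots of both colours.

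KDM5B, KDM6B and HDAC8 were lower than control in sh1 at all 3 days, and no member was called in sh2 at all 3. The share of all genes called at all 3 days was not counted. KDM5B was at 33.0, 38.6 and 36 CPM in sh1 at day -2, 43.8, 43.7 and 46.0 CPM at day 0 and 81.5, 86.2 and 88.4 CPM at day +2. At each day these libraries lay below the control libraries given above, by log2 fold changes of -0.54 ± 0.07, -0.58 ± 0.06 and -0.35 ± 0.06 (adjusted p = 1.31e-05, 4.30e-09 and 4.83e-05). In sh2 the differences of KDM5B were -0.05 ± 0.07, -0.24 ± 0.06 and -0.13 ± 0.06, and the one of day 0 was called, a call lost without control replicate 1 or 2 or sh2 replicate 2 (-0.30 to -0.16 over the 6 fits).

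KDM6B in sh1 was at 19.3, 26.2 and 24.8 CPM at day -2, 24.2, 27.6 and 30.6 CPM at day 0 and 67.3, 67.8 and 59.4 CPM at day +2, below every control library of the same day. The differences were -0.40 ± 0.10, -0.55 ± 0.07 and -0.32 ± 0.06 (adjusted p = 0.00542, 1.74e-06 and 6.59e-04). In sh2 they were 0.10 ± 0.08, -0.20 ± 0.07 and -0.17 ± 0.06, and none was called, although that of day 0 was without sh2 replicate 1 (-0.25 to -0.15 over the 6 fits). Without sh1 day -2 replicate 1, the library that stood apart, the first sh1 difference was -0.29 and still called. HDAC8 was at 18.3, 15.7 and 16.1 CPM at day -2, 18.5, 17.2 and 16.3 CPM at day 0 and 20.6, 17.8 and 19.2 CPM at day +2 in sh1, against 24.9, 23.8 and 23.4 CPM in control at day 0. It too was below all control libraries at each day (-0.53 ± 0.10, -0.47 ± 0.08 and -0.35 ± 0.09, adjusted p = 6.21e-04, 8.31e-05 and 0.00475), and in sh2 it was not called (adjusted p = 0.0672, 0.915 and 0.732), except at day -2 without control replicate 2 or sh2 replicate 3 (-0.36 to -0.19 over the 6 fits).

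The demethylases called in sh1 were all lower, 3 of 16 at day -2, 6 at day 0 and 3 at day +2. None was higher, nor was any in DESeq2, and at an unadjusted p under 0.05 edgeR gave 0 higher at each day against 8, 10 and 5 lower. KDM3A was lower in both lines at day +2, at 42.6, 44.3 and 48.3 CPM in sh1 and 45.1, 40.6 and 48.1 CPM in sh2 against 54.2, 58.9 and 61.5 CPM in control. Both lines lay below all control libraries (log2 fold change -0.37 ± 0.07, adjusted p = 2.62e-04 in sh1 and log2 fold change -0.39 ± 0.07, adjusted p = 1.90e-04 in sh2). KDM7A was lower in sh1 at day 0, at 5.21, 3.87 and 4.28 CPM against 5.87, 7.86 and 5.61 CPM (log2 fold change -0.53 ± 0.16, adjusted p = 0.0206), without overlap but with a call lost without control replicate 2 or sh1 replicate 2 or 3 (-0.67 to -0.36 over the 6 fits). KDM6A differed at day -2, at 15.5, 13.4 and 14.5 CPM in sh1 and 16.9, 17.0 and 12.8 CPM in sh2 against 21.2, 19.5 and 20.5 CPM in control. Neither line overlapped control (log2 fold change -0.50 ± 0.10, adjusted p = 9.88e-04 in sh1 and log2 fold change -0.39 ± 0.10, adjusted p = 0.0158 in sh2), and the sh2 call was lost without control replicate 1 or 3 or sh2 replicate 3 (-0.46 to -0.27 over the 6 fits).

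Acetyltransferases in sh1 were called at day -2 (1 higher and 4 lower of 9) and at day 0 (1 higher and 6 lower), and not at day +2, when none of the 9 had an unadjusted p under 0.05 in edgeR or was called by DESeq2. KAT2B was at 14.9, 13.2 and 11.7 CPM in sh1 and 16.5, 19.0 and 18.8 CPM in control at day -2 (log2 fold change -0.44 ± 0.11, adjusted p = 0.00678), and at 13.7, 17.1 and 14.02 against 17.9, 19.1 and 20.2 CPM at day 0 (log2 fold change -0.36 ± 0.10, adjusted p = 0.00715, a call lost without sh1 replicate 1). The lines did not overlap at either day. EP300 was at 129.5, 143 and 145 CPM in sh1 at day -2 against 161, 160.0 and 169 CPM in control (log2 fold change -0.23 ± 0.06, adjusted p = 0.00786), and at 137, 129 and 145 against 164, 170.0 and 155 CPM at day 0 (log2 fold change -0.25 ± 0.05, adjusted p = 1.77e-04), again without overlap.

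KAT6A (chr8:41786997-41909512) and KAT6B (chr10:76584685-76792382), which acetylate H3K23, were also called lower in sh1 at both days. KAT6A was at 74.8, 84.2 and 78.1 CPM in sh1 and 96.2, 86.6 and 98.0 CPM in control at day -2 (log2 fold change -0.24 ± 0.06, adjusted p = 0.0128, lost without control replicate 1 or 3) and at 82.1, 76.7 and 79.5 against 93.3, 91.2 and 89.6 CPM at day 0 (log2 fold change -0.20 ± 0.05, adjusted p = 0.00327). KAT6B was at 61.5, 59.5 and 66.9 CPM in sh1 and 73.9, 82.7 and 73.7 CPM in control at day 0 (log2 fold change -0.30 ± 0.06, adjusted p = 2.59e-04), and its call of day -2 was lost without any one of the control libraries or sh1 replicate 3 (-0.24 to -0.20 over the 6 fits). The lines did not overlap in KAT6A at either day or in KAT6B at day 0. KAT6B was lower in sh2 at day 0 too, at 64.2, 65.4 and 66.4 CPM (log2 fold change -0.25 ± 0.06, adjusted p = 0.00239). The other members called lower in sh1 at day 0 lay between -0.30 (KDM4A) and -0.14 (KDM5A). At day +2, EHMT2 was lower by -0.34, EHMT1 by -0.23 and HDAC1 by -0.19 on the log2 scale, genes singled out after their values were seen.

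KAT2A was the exception among them. It was at 80.5, 76.6 and 80.7 CPM in sh1 and 75.0, 73.7 and 80.2 CPM in sh2 at day -2 against 65.4, 65.3 and 63.7 CPM in control. Every library of both lines was above those of control (log2 fold change 0.29 ± 0.06, adjusted p = 0.00178 in sh1 and log2 fold change 0.23 ± 0.06, adjusted p = 0.0139 in sh2). The sh2 call was lost without any one of the 3 control libraries (0.20 to 0.26 over the 6 fits). At day 0 it was higher in sh1 (log2 fold change 0.23 ± 0.05, adjusted p = 0.00156) and in sh2 (log2 fold change 0.17 ± 0.06, adjusted p = 0.0430), in sh2 with a call lost without replicate 1 or 2 of either line (0.10 to 0.22). PRMT2 was the only member higher in sh1 and in sh2 at day +2 besides HDAC4, at 105, 101 and 97.5 CPM in sh1 and 104, 98.1 and 95.5 CPM in sh2 against 85.2, 85.4 and 85.8 CPM. These libraries did not overlap control (log2 fold change 0.24 ± 0.06, adjusted p = 0.00412 in sh1 and log2 fold change 0.21 ± 0.06, adjusted p = 0.0188 in sh2, lost in sh2 without control replicate 2 or 3 or sh2 replicate 1). PRMT2 was also called higher at day 0, by 0.15 ± 0.05 in both lines (adjusted p = 0.0174 in sh1 and 0.036 in sh2). Whether these day 0 calls held on leaving out 1 library is not given here.

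SIRT7 (chr17:79869815-79879199), a nuclear deacetylase, was at 45.5, 41.4 and 52.1 CPM in sh1 and 49.0, 43.1 and 48.3 CPM in sh2 at day -2 against 40.6, 37.1 and 37.6 CPM in control (log2 fold change 0.27 ± 0.08, adjusted p = 0.0264 in sh1 and log2 fold change 0.28 ± 0.07, adjusted p = 0.0139 in sh2). Both lines lay above control. At day 0 SIRT7 was called higher in sh2 (log2 fold change 0.22 ± 0.07, adjusted p = 0.0390) but not in sh1. SIRT5 (chr6:13574459-13615390), a mitochondrial enzyme that removes succinyl groups, was at 7.79, 7.96 and 7.93 CPM in sh1 against 5.31, 5.66 and 6.29 CPM in control at day -2 (log2 fold change 0.46 ± 0.14, adjusted p = 0.0303). It did not overlap either. Without control replicate 2 or 3 the SIRT7 calls of day -2 were lost in both lines. That of sh1 was also lost without sh1 replicate 3 (0.17 to 0.34 over the 6 fits), and that of sh2 without sh2 replicate 1 (0.25 to 0.33). The SIRT5 call was lost without control replicate 1 or 2 or sh1 replicate 2 or 3 (0.40 to 0.52).

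Of the remaining members named for sh2, HDAC6 was higher at day -2 at 76.3, 72.5 and 85.6 against 64.1, 66.0 and 62.5 CPM (log2 fold change 0.28 ± 0.06, adjusted p = 0.00672), and PRMT3 lower at 24.7, 24.7 and 24.8 against 32.4, 30.7 and 30.6 CPM (log2 fold change -0.34 ± 0.08, adjusted p = 0.00538, lost without control replicate 1). Neither overlapped control. SIRT1 (chr10:69644414-69678147), a nuclear deacetylase, was lower at day 0 at 42.7, 40.1 and 43.0 against 50.1, 49.6 and 50.0 CPM (log2 fold change -0.26 ± 0.06, adjusted p = 0.00325), without overlap. The H3K27 methyltransferases EZH1 and EZH2 and the H3K4 methyltransferases SETD1A and SETD1B were called in neither line at any day. The third H3K4 methyltransferase, SETD7, was higher in sh1 at day 0, at 103, 94.8 and 99.6 CPM against 90.2, 88.7 and 88.8 CPM (log2 fold change 0.15 ± 0.05, adjusted p = 0.0291), without overlap, and its call held only in the fit without sh1 replicate 2 among the 6 fits that left out 1 library (0.12 to 0.18).

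The hairpin lines were also compared with each other, a comparison chosen after the data had been seen, and every called member was lower in sh1. At day -2, 11 of 67 were called lower and 0 higher (16.4%), against 10.7% of all genes (5.01% higher and 5.69% lower). At day 0 it was 18 lower and 0 higher (26.9%), against 18.5% of all genes (8.90% higher and 9.62% lower), and at day +2 it was 1 lower and 0 higher (1.49%), against 7.86% (4.59% higher and 3.27% lower). DESeq2 also gave none higher, with 12, 18 and 3 lower, and at an unadjusted p under 0.05 edgeR gave 1 higher at each day against 20, 23 and 7 lower. KDM5B was called at all 3 days (-0.50 ± 0.08, -0.34 ± 0.06 and -0.22 ± 0.06; its 62.0, 51.0 and 57.6 CPM in sh2 at day 0 lay above the sh1 libraries), with the last lost without sh1 replicate 1 or 2 or sh2 replicate 1 (-0.25 to -0.19 over the 6 fits). CREBBP, DOT1L, EHMT1, EHMT2, EP300, HDAC7, KDM2A, KDM6B and SETD5 were called at day -2 and day 0. The count of day -2 fell to 5 without sh1 replicate 1 and to 6 without sh2 replicate 1 or 2. That of day +2 went to 0 without sh1 replicate 2 or sh2 replicate 1, to 2 without sh1 replicate 1 or sh2 replicate 2 and to 4 without sh2 replicate 3.

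Whether the change over the expansion itself differed from control was tested as an interaction of line and day on the 12 libraries of days -2 and +2. In sh1, 10 of 67 members had such a difference (14.9%; 8 higher and 2 lower), against 7.40% of all genes (4.52% higher and 2.88% lower). In sh2 it was 2 (2.99%; 1 higher and 1 lower), against 4.98% of all genes (2.71% higher and 2.28% lower). The sh1 count fell to 5 without control day -2 replicate 1 or sh1 day +2 replicate 3 and to 6 without control day +2 replicate 2 or 3. The sh2 count fell to 1 without control day +2 replicate 3 or sh2 day +2 replicate 1 and rose to 4 without sh2 day -2 replicate 1.

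HDAC4 (chr2:239969864-240323348), a class IIa deacetylase of low abundance, had the largest interaction. It was at 3.03, 3.73 and 3.66 CPM in sh1 at day -2 and at 8.68, 7.60 and 8.36 CPM at day +2, whereas in control it was at 5.57, 3.65 and 6.38 CPM at day -2 and 5.00, 6.31 and 4.04 CPM at day +2. The days separated in sh1 (log2 fold change 1.23 ± 0.16, adjusted p = 8.19e-07) and overlapped in control (-0.02 ± 0.19), and the difference between the changes was 1.26 ± 0.26 (adjusted p = 0.00256). In sh2 it was at 4.68, 4.65 and 3.17 CPM at day -2 and 9.36, 7.20 and 6.05 CPM at day +2 (log2 fold change 0.85 ± 0.18, adjusted p = 1.58e-04), and the difference from the change in control was 0.87 ± 0.28 (adjusted p = 0.0656), which was called without replicate 2 of control at day -2 or day +2 or sh2 day +2 replicate 3 (0.69 to 1.07 over the 12 fits). At day +2, sh1 lay above all control libraries (log2 fold change 0.68 ± 0.16, adjusted p = 0.00241), while sh2 overlapped them (log2 fold change 0.56 ± 0.16, adjusted p = 0.0303), with a call lost without control replicate 1 or 3 or sh2 replicate 1 or 2 (0.37 to 0.74 over the 6 fits).

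HDAC9, of the same class, was called in both interactions (0.44 ± 0.11, adjusted p = 0.0150 in sh1, and 0.50 ± 0.10, adjusted p = 0.00194 in sh2). Its dip at confluence was present in all lines, at 28.3, 23.5 and 24.0 CPM in sh1 and 27.4, 24.2 and 26.8 CPM in sh2, and the lines differed at day -2, when sh1 was at 32.8, 34.9 and 35.7 CPM and sh2 at 33.0, 34.6 and 30.8 CPM against 47.2, 44.4 and 43.4 CPM in control. At that day neither line overlapped control (log2 fold change -0.38 ± 0.07, adjusted p = 7.03e-04 in sh1 and log2 fold change -0.46 ± 0.07, adjusted p = 2.20e-04 in sh2), and at day 0 and day +2 both did. The sh1 interaction was lost without control day -2 replicate 1, control day +2 replicate 3 or sh1 day +2 replicate 3 (0.35 to 0.54 over the 12 fits).

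**Figure D4:**
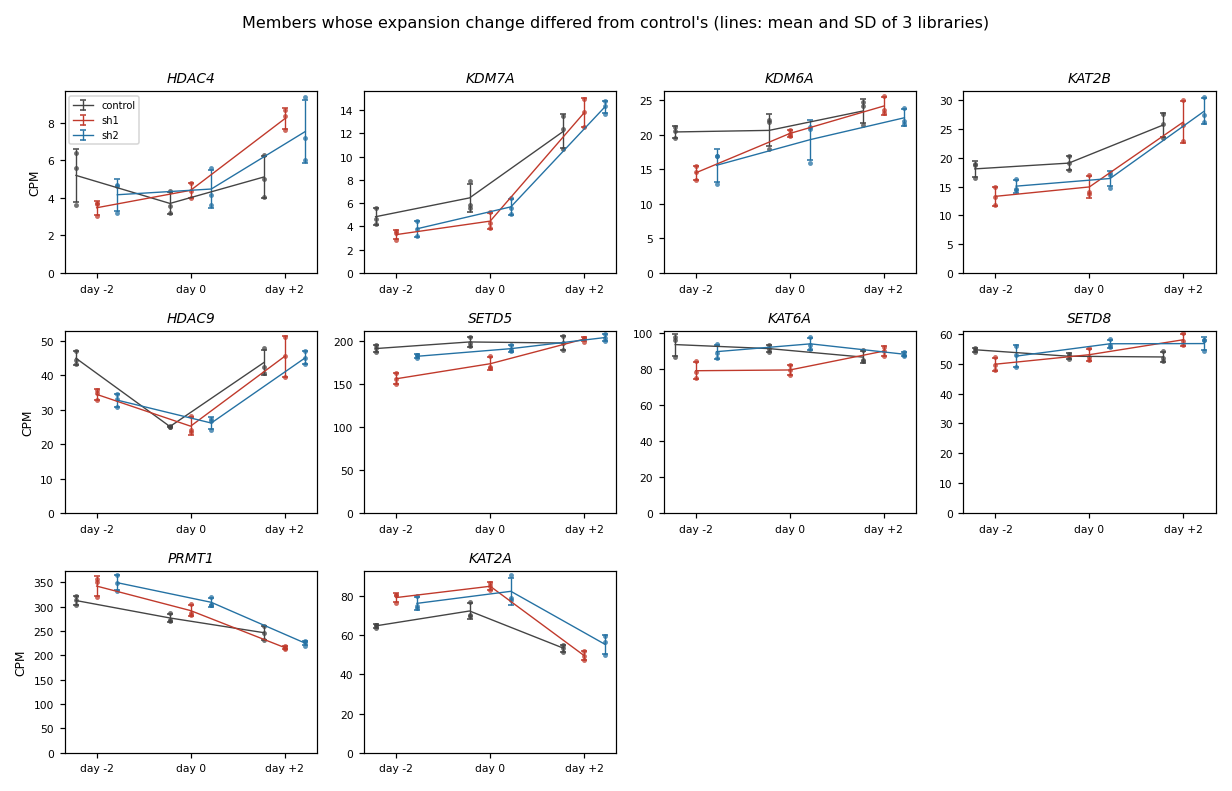
Level in each library (points, CPM) with the mean and SD of 3 libraries (lines and bars) at the 3 days in control, sh1 and sh2, for the 10 members with a called interaction of line and day. In HDAC4, HDAC9, KDM6A, SETD5 and KAT6A the sh1 line starts below control at day -2 and meets or passes it at day +2, and in KAT2A and PRMT1 it starts above control and ends below it.

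KDM6A had an interaction in sh1 (0.54 ± 0.13, adjusted p = 0.00642). Its libraries of day +2, 23.6, 23.2 and 25.6 CPM in sh1, overlapped those of control, whereas those of day -2 had been below control. KDM7A rose from 3.46, 2.83 and 3.59 to 13.8, 12.5 and 15.0 CPM in sh1 (4.18-fold) and from 4.48, 3.15 and 3.74 to 14.4, 13.7 and 14.7 CPM in sh2 (3.79-fold), without overlap in either line. Its interaction was 0.74 ± 0.20 in sh1 (adjusted p = 0.0191) and 0.59 ± 0.20 in sh2 (adjusted p = 0.0776), and the latter was called without sh2 day -2 replicate 1 (0.47 to 0.74 over the 12 fits). The former was lost without control day -2 replicate 1, control day +2 replicate 2, sh1 day -2 replicate 2 or sh1 day +2 replicate 3 (0.59 to 0.83 over the 12 fits).

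PRMT1 and KAT2A fell more in sh1 than in control. PRMT1 went from 357, 319.8 and 351 to 216, 219.6 and 213 CPM in sh1 and from 333, 349.6 and 365 to 219.8, 229 and 227 CPM in sh2, and the interactions were -0.32 ± 0.08 (adjusted p = 0.00732) and -0.29 ± 0.07 (adjusted p = 0.0130). Both lines ended below every control library of day +2, although at that day only sh1 was called (log2 fold change -0.19 ± 0.05, adjusted p = 0.0124, lost without control replicate 2 or 3). The sh2 interaction was lost without control day +2 replicate 3 or sh2 day +2 replicate 1 (-0.32 to -0.24). KAT2A went from 80.5, 76.6 and 80.7 to 51.8, 49.4 and 47.6 CPM in sh1, with an interaction of -0.40 ± 0.09 (adjusted p = 0.00335), and from 75.0, 73.7 and 80.2 to 59.5, 56.8 and 50.0 CPM in sh2, with one of -0.18 ± 0.09 (adjusted p = 0.293).

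SETD5 (chr3:9439299-9520924), a SET domain protein whose activity on histones is debated, was at 150.1, 162 and 156 CPM in sh1 at day -2 and 204, 204 and 199 CPM at day +2, against 191, 187 and 195 CPM and 206, 189 and 198 CPM in control. The lines were apart at day -2 (log2 fold change -0.29 ± 0.05, adjusted p = 6.11e-04) and overlapped at day +2, with an interaction of 0.33 ± 0.07 (adjusted p = 0.00448). Reads were counted without strand, and any read over both SETD5 and the antisense gene SETD5-AS1 (17.9 to 31.9 CPM) was counted for neither. The level of SETD5 thus leaves out reads from any bases that the 2 genes share.

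The interactions of KAT2B (0.47 ± 0.15), KAT6A (0.30 ± 0.09) and SETD8 (0.28 ± 0.09) had adjusted p of 0.0451, 0.0326 and 0.0456 and ranges of 0.36 to 0.56, 0.25 to 0.35 and 0.26 to 0.31 over the 12 fits without 1 library. These calls held in few of those fits: in 3 for KAT2B (without control day +2 replicate 1 or sh1 replicate 1 of either day), in 4 for KAT6A (without control replicate 2 of day -2 or 1 of day +2, or sh1 replicate 2 of day -2 or 1 of day +2) and in 2 for SETD8 (without replicate 1 of day +2 in either line). SETD8 (chr12:123868679-123893900), the monomethyltransferase of lysine 20 of histone H4, was at 48.0, 52.2 and 49.5 CPM in sh1 at day -2 and 56.2, 57.8 and 60.3 CPM at day +2, against 54.8, 54.1 and 55.4 CPM and 54.3, 51.8 and 50.9 CPM in control. The sh1 libraries lay below control at day -2 and above it at day +2, although neither difference was called on its own (adjusted p = 0.212 and 0.129). KAT2B rose in sh1 from the values given above to 22.9, 25.8 and 30.0 CPM at day +2, and KAT6A to 87.2, 92.4 and 90.2 CPM. Both then overlapped control. In sh2 these interactions were 0.39 ± 0.13 for KAT2B, 0.09 ± 0.08 for KAT6A and 0.17 ± 0.09 for SETD8 (adjusted p = 0.0807, 0.650 and 0.311), and that of KAT2B was called without control day +2 replicate 1 (0.32 to 0.46 over the 12 fits).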

How the data were processed

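Per the labels and the study's methods, the authors used Trim Galore 0.6.0 to trim the read pairs and STAR 2.7.3a for alignment to hg19, then counted reads per gene symbol with HTSeq 2.0.0 (union mode, without strand, mapping quality of at least 10), and the deposited values are these raw counts. The annotation release behind the counts is not given in the sources used here. The 5 summary lines of each table (16.77 to 19.1% of its total) name no gene and were left out. Reads over more than 1 gene (6.95 to 7.83% per library) were not counted by the authors' counter.

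From the counts, each comparison was fitted on its own libraries over all genes with the quasi-likelihood test of edgeR 4.0.16 (R 4.3.3), with trimmed-mean normalization, the filter filterByExpr and Benjamini-Hochberg adjustment over all genes tested, and a gene was called at an adjusted p under 0.05. Alternatives were DESeq2 1.42.0, relative log expression factors, other count filters, 1 fit over all 27 libraries, the replicate number as a block, and leaving out each library. The comparison of sh1 with sh2 was added after seeing the data. CPM values were computed with trimmed-mean factors over all libraries, and levels per kilobase with the union of exons in GENCODE for GRCh37, which also gave the positions. No label names a batch. All pairs of replicates differed by more than sampling noise (chi-square at least 4.58 times its degrees of freedom). The fits were tested on simulated counts.

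The members, the lists of other genes and the rule for which members are given in full (the 6 largest changes each way over the control expansion, calls at all 3 days in 1 hairpin line, the 3 largest each way in each comparison with control, called interactions, and EZH1, EZH2 and the enzymes of the marks the study followed) were chosen with earlier results of these data known.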

Additional observations from a re-analysis of the deposited data

Results flagged for a closer look

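The members below changed differently over the expansion, from day -2 to day +2, in a hairpin line than in control, by the interaction term of edgeR over 12 libraries. Values are the log2 fold change in the hairpin line minus that in control.

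In sh1 the difference was above 0 for HDAC4 (1.26), KDM7A (0.74), KDM6A (0.54), KAT2B (0.47), HDAC9 (0.44), SETD5 (0.33), KAT6A (0.30) and SETD8 (0.28), and below 0 for PRMT1 (-0.32) and KAT2A (-0.40). In sh2 it was above 0 for HDAC9 (0.50) and below 0 for PRMT1 (-0.29). HDAC9 and PRMT1 were called in both lines, which share the control libraries.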

How the results depend on the processing

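No called value of a described member reversed its sign under any alternative that was run. Of 209 such values, 8 lost their call with DESeq2, 5 with relative log expression factors, 11 with all 27 libraries in 1 fit, 1 with at least 10 counts required in every library and 6 with no filter. On leaving out 1 library, 190 of 1326 refitted calls were lost. The counts of members called kept within 1.5 times with the following exceptions. For sh2 against control at day 0 (9), all 27 libraries in 1 fit gave 5. For the interaction of sh2 and day (2), at least 10 counts in every library gave 4. For sh1 against sh2 at day +2 (1), DESeq2 gave 3, no filter 3, at least 10 counts in every library 3 and all 27 libraries in 1 fit 4.

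Leaving out 1 library at a time gave, for sh2 against control, 3 to 10 called members (day -2), 2 to 8 (day 0) and 1 to 3 (day +2), then 5 to 11 in the interaction of sh1 and day and 1 to 4 in that of sh2, and 5 to 12 in sh1 against sh2 at day -2 and 0 to 4 at day +2. The ranges were 33 to 35, 22 to 25 and 30 to 34 for the control intervals (whole, first and second), 37 to 43 and 33 to 39 for the expansion of sh1 and sh2, 10 to 15, 14 to 19 and 7 to 11 for sh1 against control, and 13 to 16 for sh1 against sh2 at day 0.

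Groups share replicate numbers in the labels, but in none of 33 pairs did same-numbered libraries deviate together by a correlation over 0.1 (-0.0248 to 0.0258), and 13 correlated best with their own number. With the replicate block, sh2 against control at day 0 gave 4 called members in place of 9 and sh1 against sh2 at day +2 gave 4 in place of 1, and 9 of the 209 called values were lost.

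Depth limits the scarce members the most. Of those tested these were SIRT4 and HDAC10 (14 to 71 and 14 to 94 counts per library), and of those described with their libraries KDM4D, KDM7A, HDAC4 and SIRT5. For these and for all members, a difference that was not called is not shown to be absent.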
